A study of Rattus norvegicus with 18 samples.

Results

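The genes described here are 30 rat genes of cholesterol synthesis and transport, read from the rows of the expression table whose gene symbol is on that list, across all 18 libraries. The table has 32545 lines, and 14865 of them passed the filter on low values (at least 1 RPKM in at least 2 libraries), including 30 of the 30 listed genes. The list holds 18 synthesis genes and 12 genes that regulate synthesis or move cholesterol: the SREBP system (Srebf1, Srebf2, Scap, Insig1, Insig2), the liver X receptors (Nr1h2, Nr1h3), the exporters Abca1 and Abcg1, the lysosomal proteins Npc1 and Npc2, and the sterol carrier Stard4. Rows were picked by name and not by value, but the list itself was drawn up with earlier results of these data known.

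The study followed the rat germline by RNA sequencing, from the epiblast, the layer of pluripotent cells that forms the embryo, to primordial germ cells (PGCs), the founders of sperm and eggs. Every library came from Wistar rats (Crlj:WI) labelled Prdm14-Venus, a reporter that joins the germ-cell gene Prdm14 to the fluorescent protein Venus. Thus no group lacked the reporter, the epiblast included. Epiblast was taken at embryonic day 7.25 (E7.25; 2 libraries labelled male, 1 female) and E7.75 (2 male, 1 female). PGCs were taken on several days: 2 libraries each, with no sex given, at E9.5 and at E10.5, another 2 each at E11.5 and at E12.5, and at E15.5 a pair labelled male and a pair labelled female. Neither the number of embryos in a library nor whether the 2 or 3 libraries of a group came from different animals is given in the sources used here. The p-values therefore describe the scatter among libraries, part of which may be technical.

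The values are RPKM, reads per kilobase of gene, scaled to the number of mapped reads. A change is given as log2 fold change (log2FC) of RPKM + 1 with its standard error (SE), which understates the change of genes near 0. A gene is said to have risen or fallen where the p-value of a limma fit over all tested genes, adjusted by the Benjamini-Hochberg method, was under 0.05. Because the tissues are bulk samples, fewer cells of a type and less RNA per cell cannot be told apart.

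Cholesterol is built from acetyl-CoA through mevalonate, farnesyl diphosphate, squalene and lanosterol, and it is needed for cell membranes and as the precursor of steroids. When sterols are scarce in the endoplasmic reticulum, the escort protein Scap carries the SREBP transcription factors (products of Srebf1 and Srebf2) to the Golgi, where they are cut and released to switch on synthesis and uptake genes. Insig1 and Insig2 hold Scap back when sterols are plentiful, and Insig1 is itself an SREBP target. Oxidised sterols act the other way through the liver X receptors, which switch on the exporters Abca1 and Abcg1.

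A summed set of 6 PGC markers stood at 423 to 850 RPKM in the PGC libraries against 5.56 to 20.0 RPKM in the epiblast libraries, so the labels and the markers gave the same division. Of 6 epiblast markers 4 had values, with Fgf5 listed at 0 in all libraries. They summed to 2622 to 3522 RPKM in epiblast and 444 to 2377 RPKM in PGCs. The lowest PGC sums were 444 to 489 RPKM at E9.5 and 515 to 576 RPKM in female E15.5 PGCs. The E9.5 libraries stood apart in markers of mesenchyme, endothelium and gonadal support cells. A list of 7 mesenchyme genes summed to 414 to 420 RPKM there, against 1.07 to 6.23 RPKM in epiblast. At E10.5 it summed to 31.6 to 42.6 RPKM. Endothelial genes summed to 26.5 to 95.4 RPKM at E9.5, against at most 0.658 RPKM in epiblast. A list of 6 gonadal support genes summed to 16.1 to 37.2 RPKM at E9.5, against at most 6.72 RPKM in the other groups. A list of 10 genes of lipid-carrying endoderm (visceral and yolk sac) reached its highest sums in epiblast. It summed to 7.44 to 41.1 RPKM at E7.25 and 7.82 to 59.7 RPKM at E7.75. The sums were 3.65 to 17.1 RPKM at E9.5 and at most 9.18 RPKM at E11.5. They were at most 4.72 RPKM at E10.5, E12.5 and E15.5. The part of endoderm cells in the epiblast values was not tested. The 2 libraries at E10.5 and the 2 at E11.5 had an estimated 20.7% to 22.9% of the depth of the E7.75 female library. The other libraries had 82.6% to 120.9%, as estimated from the steps between values under 50 RPKM. Both E10.5 libraries and E11.5 library 2 were set against E11.5 library 1, whose own estimate rested on 83 of 9142 compared genes.

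The 4 promoters shown here belong to the members that rose between E11.5 and E12.5, and were chosen after those values were seen. Each is the RefSeq window of the rat assembly GRCr8 from 250 bases before to 50 bases after the gene's start, on the gene's strand. Capitals mark the NF-Y box (CCAAT, or ATTGG on the other strand) and the Sp1 box (GGGCGG, or CCGCCC), which bind general factors known to work beside SREBPs. Insig1 lies at chr4:8057720-8058019 on the minus strand, Hmgcs1 at chr2:53382054-53382353, Cyp51 at chr4:30991443-30991742 and Msmo1 at chr16:29746863-29747162, the last 3 on the plus strand.
Insig1: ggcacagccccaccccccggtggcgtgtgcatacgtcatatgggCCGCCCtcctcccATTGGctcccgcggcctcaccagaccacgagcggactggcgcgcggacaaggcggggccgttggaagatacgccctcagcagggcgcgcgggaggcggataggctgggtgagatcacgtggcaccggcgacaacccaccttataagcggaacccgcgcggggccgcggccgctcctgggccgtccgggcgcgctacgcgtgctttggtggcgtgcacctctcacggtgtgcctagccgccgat
Hmgcs1: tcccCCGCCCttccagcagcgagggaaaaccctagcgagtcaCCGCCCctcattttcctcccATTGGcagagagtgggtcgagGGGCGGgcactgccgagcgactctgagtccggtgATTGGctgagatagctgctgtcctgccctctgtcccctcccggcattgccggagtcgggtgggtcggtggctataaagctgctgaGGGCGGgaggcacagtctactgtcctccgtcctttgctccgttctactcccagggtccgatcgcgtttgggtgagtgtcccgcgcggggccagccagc
Cyp51: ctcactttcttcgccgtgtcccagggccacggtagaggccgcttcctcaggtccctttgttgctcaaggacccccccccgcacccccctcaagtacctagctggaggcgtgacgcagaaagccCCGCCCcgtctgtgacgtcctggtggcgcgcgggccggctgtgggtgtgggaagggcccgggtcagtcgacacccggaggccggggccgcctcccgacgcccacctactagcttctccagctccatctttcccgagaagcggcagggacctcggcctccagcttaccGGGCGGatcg
Msmo1: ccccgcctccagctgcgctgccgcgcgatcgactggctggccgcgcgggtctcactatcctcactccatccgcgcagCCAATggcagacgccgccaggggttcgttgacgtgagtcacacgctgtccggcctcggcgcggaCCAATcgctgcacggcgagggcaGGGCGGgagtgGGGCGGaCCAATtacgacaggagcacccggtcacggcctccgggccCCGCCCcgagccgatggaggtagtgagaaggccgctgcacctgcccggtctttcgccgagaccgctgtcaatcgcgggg
Insig1 has 1 NF-Y box and 1 Sp1 box, Hmgcs1 has 2 and 4, Cyp51 has 0 and 2, and Msmo1 has 3 and 3. A core of the sterol regulatory element, the SREBP site, was searched as TCACNCCAC on both strands and matched 0 of 25 member promoters, against 1.12% of all 33469 windows, which says only that these letters are not in these windows.

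Across the list, a window was given for 25 members, and for Pmvk, Fdft1, Sqle, Abcg1 and Stard4 none is shown. An NF-Y box was present in 12 of the 15 synthesis genes with a window (not in Acat2, Cyp51 or Dhcr7) and in 5 of the 10 other members (Srebf1, Srebf2, Insig1, Insig2 and Npc2), against 37.5% of all windows. An Sp1 box was present in 13 of 15 synthesis genes (not in Idi1 or Nsdhl) and in 7 of 10 others (Srebf1, Srebf2, Scap, Insig1, Abca1, Npc1 and Npc2), against 33.1% of all windows. These are matches of letters and not measured binding sites.

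Both sides of the list stood higher in E12.5 and E15.5 PGCs than in epiblast, and in each PGC library the median of the regulators and transport genes was above that of the synthesis genes. In each library, the median log2 difference of the 18 synthesis genes from the epiblast mean was -0.25 to 0.19 in epiblast, -0.23 and 0.08 in the E9.5 libraries, 0.12 to 0.32 at E10.5 and -0.02 to 0.02 at E11.5. It was 0.28 to 0.32 at E12.5, 0.68 to 0.73 in male E15.5 PGCs and 0.49 to 0.53 in female E15.5 PGCs. The other 12 members had medians of 0.27 and 0.76 at E9.5, 0.39 to 0.56 at E10.5 and 0.57 to 0.63 at E11.5. Their medians were 1.09 to 1.15 at E12.5, 1.14 to 1.25 in male E15.5 PGCs, and 1.11 and 0.63 in the female ones. Summed over the 18 synthesis genes, the level was 641 to 822 RPKM in epiblast, 660 to 729 RPKM at E9.5, 957 to 973 RPKM at E10.5, 826 to 851 RPKM at E11.5, 950 to 1019 RPKM at E12.5, 1266 to 1277 RPKM in male E15.5 PGCs and 1089 to 1169 RPKM in female ones. Fdps, which makes farnesyl diphosphate, was the most abundant member in each library, at 167 to 524 RPKM. Without it the summed level was 407 to 552 RPKM in epiblast, 538 to 546 RPKM at E10.5, within the epiblast range, and 673 to 720 RPKM at E12.5.

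**Figure D1:**
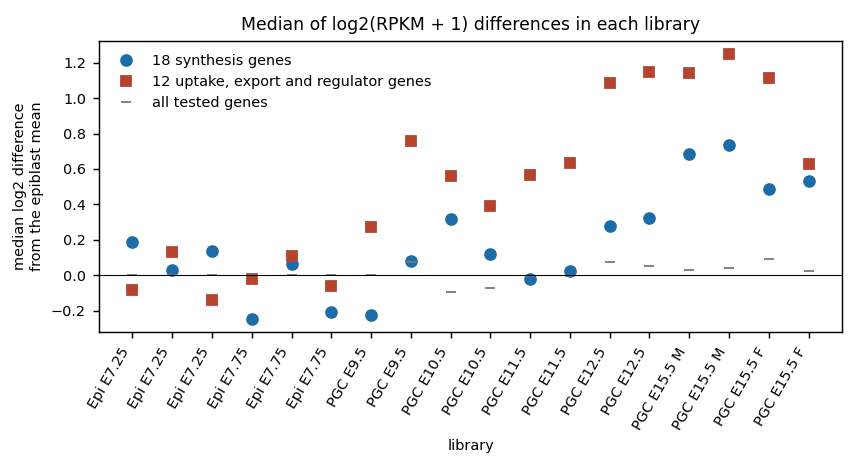
Median log2 difference of RPKM + 1 from the epiblast mean (vertical axis) in each of the 18 libraries (horizontal axis), for 18 synthesis genes (circles), 12 uptake, export and regulator genes (squares) and all tested genes (dashes). The squares lie above the circles in every PGC library, and the circles are highest in E15.5 PGCs, at 0.49 to 0.73.

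**Figure D2:**
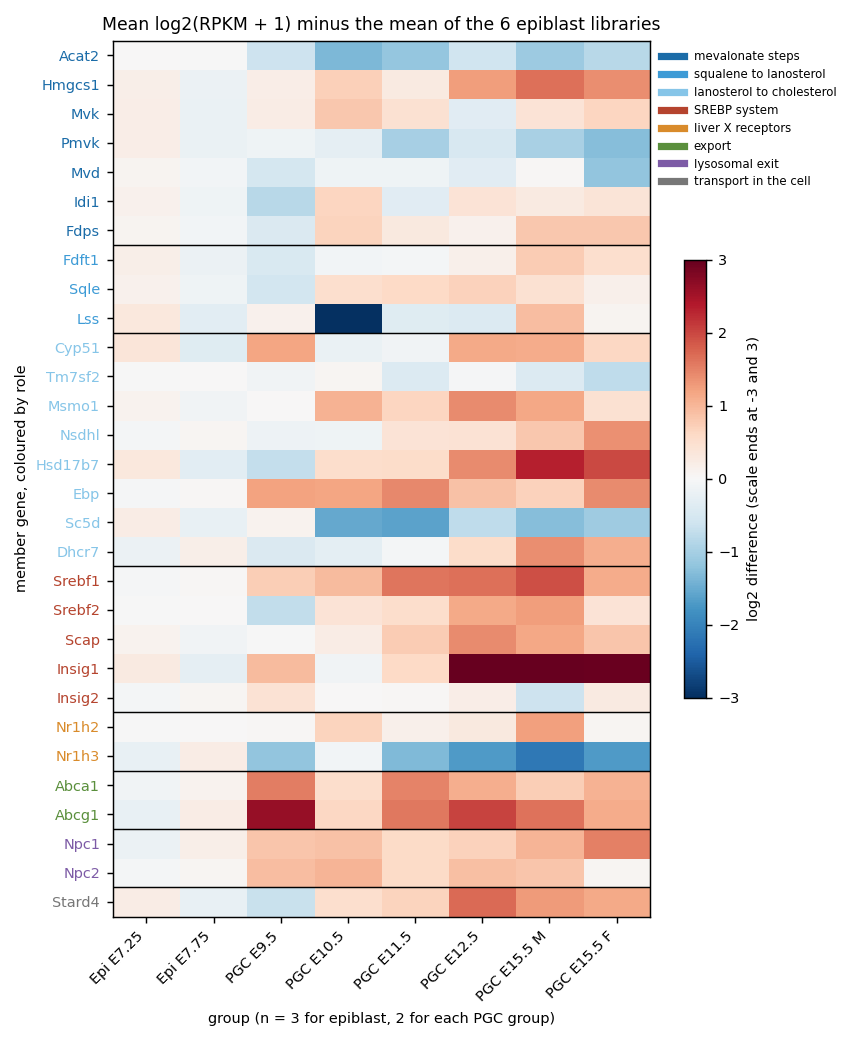
Mean log2 difference of RPKM + 1 from the epiblast mean for each of the 30 members (rows, by role) in the 8 groups (columns: E7.25 and E7.75 epiblast, PGCs at 4 ages from E9.5 to E12.5, and male and female E15.5 PGCs), on a colour scale in log2 units. Insig1 is near or above the epiblast level until E11.5 and far above it from E12.5, while Acat2 is below it in all PGC groups.

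Taking PGCs of all ages against both epiblast days (12 against 6 libraries), 18 of 30 members were higher and 5 lower, which is 60% and 16.7% of the members. Of all tested genes, 32.1% were called higher and 26.4% lower, so a large part of the transcriptome differed. Among the 12 regulators and transport genes, 10 rose, 1 fell and 1 did not pass, with a median log2FC of 0.75. Of the 18 synthesis genes, 8 rose, 4 fell and 6 did not pass, with a median of 0.34, against 0.09 over all tested genes.

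The SREBP system rose in 4 of its 5 members. Insig1 was at 3.94, 7.99 and 13.7 RPKM (lowest, median, highest) in epiblast and at 4.55, 37.5 and 92.4 RPKM in PGCs, a 5.48-fold higher mean (log2FC 1.82 ± 0.19 SE, limma adjusted p = 1.92e-06). The groups overlapped, because its E9.5 to E11.5 libraries stood at 4.55 to 16.7 RPKM and the later ones at 58.2 RPKM or more. Srebf1, whose main product drives fatty acid as well as sterol genes, was at 5.26, 7.22 and 7.72 RPKM in epiblast and 8.99, 20.0 and 31.7 RPKM in PGCs (2.90-fold, log2FC 1.34 ± 0.16, adjusted p = 7.93e-06). Its 2 groups did not overlap. Scap had a PGC mean of 15.1 RPKM against 8.12 RPKM (log2FC 0.73, adjusted p = 0.000313). Srebf2, the main activator of the sterol genes, had 46.6 against 29.3 RPKM (log2FC 0.50, adjusted p = 0.0493), a call that 16 of the 18 single-library omissions ended, up to an adjusted p of 0.103 without the E7.25 female library. Insig2 had a mean of 13.2 ± 3.57 RPKM (SD, n = 12) in PGCs and 12.4 ± 2.15 RPKM (SD, n = 6) in epiblast and did not pass (adjusted p = 0.779).

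Both exporters and both lysosomal genes rose. Abcg1, which passes cholesterol to lipoprotein particles, was at 2.37, 3.41 and 5.80 RPKM in epiblast and 4.12, 12.6 and 30.1 RPKM in PGCs (3.90-fold, log2FC 1.59 ± 0.18, adjusted p = 4.03e-06). Abca1, which loads cholesterol onto lipid-poor apolipoprotein, was barely detected in epiblast. Its epiblast values were 0.0127, 0.0694 and 0.186 RPKM at E7.25 and 0, 0.847 and 0.112 RPKM at E7.75, against 0.571 to 2.87 RPKM in PGCs (log2FC 1.07 ± 0.17, adjusted p = 9.45e-05). Npc1, the membrane protein that takes up cholesterol freed in lysosomes, was at 1.98 to 3.95 RPKM in epiblast and 4.09 to 10.4 RPKM in PGCs, with no overlap (2.24-fold, log2FC 0.92 ± 0.16, adjusted p = 0.000225). Its soluble partner Npc2 had means of 56.7 and 33.5 RPKM (log2FC 0.72, adjusted p = 4.97e-05). Stard4, which carries sterol through the cytosol, had means of 9.57 and 4.78 RPKM (log2FC 0.77, adjusted p = 0.0236), and that call was lost in 4 single-library omissions, up to an adjusted p of 0.0786 without E7.75 male library 2.

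The 2 liver X receptor genes went opposite ways. Nr1h2, which encodes the widely expressed LXR-beta, had a mean of 79.6 RPKM in PGCs and 57.4 RPKM in epiblast (log2FC 0.40, adjusted p = 0.00449). The rise was uneven, with means of 90.3 RPKM at E10.5, 70.8 RPKM at E12.5 and 134 RPKM in male E15.5 PGCs. Means at E9.5 (59.9 RPKM), E11.5 (63.5 RPKM) and in female E15.5 PGCs (59.1 RPKM) lay within the epiblast range of 46.5 to 69.5 RPKM. A limma fit of all PGCs and all epiblast as 2 groups did not call Nr1h2 (adjusted p = 0.104). Nr1h3, which encodes LXR-alpha, fell (log2FC -1.35 ± 0.29, adjusted p = 0.00115), from 1.23, 3.62 and 6.20 RPKM in epiblast to 0, 0.662 and 4.06 RPKM in PGCs. It was at 2.47 and 4.06 RPKM at E10.5 but at most 0.763 RPKM in each PGC library from E11.5 on, and it was listed at 0 in both male E15.5 libraries.

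Of the 8 synthesis genes that rose, 5 were among the 8 genes from lanosterol to cholesterol, 2 among the 7 of the mevalonate section and 1 among the 3 between squalene and lanosterol. Whether the sections differ was not tested. Ebp, the sterol isomerase, was at 12.1, 13.1 and 16.7 RPKM in epiblast and 20.6, 32.1 and 41.3 RPKM in PGCs (2.33-fold, log2FC 1.14 ± 0.12, adjusted p = 1.48e-06), without overlap. Msmo1, which removes methyl groups from the sterol ring, rose from a mean of 52.0 ± 8.61 RPKM (SD, n = 6) to 94.5 ± 31.4 RPKM (SD, n = 12) (1.82-fold, adjusted p = 5.33e-06). Hmgcs1, which makes HMG-CoA, rose from 36.5 ± 10.1 to 72.4 ± 28.6 RPKM (1.98-fold, log2FC 0.91 ± 0.13, adjusted p = 2.49e-05). In both of these genes the ranges overlapped. Smaller or less even rises were found for Hsd17b7 (log2FC 1.02, adjusted p = 0.00279), the lanosterol demethylase Cyp51 (0.63, 0.000275), Fdps (0.38, 0.000539), the last-step reductase Dhcr7 (0.37, 0.0375) and squalene epoxidase Sqle (0.31, 0.0101). The call of Dhcr7 was lost in 11 of 18 single-library omissions, up to an adjusted p of 0.0924 without E7.75 male library 1.

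The 4 synthesis genes that fell were Acat2, Sc5d, Pmvk and Mvd. Acat2, the thiolase that opens the pathway, was at 34.6, 39.4 and 48.2 RPKM in epiblast and 14.7, 20.4 and 28.1 RPKM in PGCs (log2FC -0.94 ± 0.09, adjusted p = 8.54e-07). Every PGC library lay below every epiblast library. Sc5d, the desaturase of the last section, had means of 17.5 and 8.85 RPKM (log2FC -1.03 ± 0.13, adjusted p = 1.13e-05), although both E9.5 libraries, at 17.9 and 19.2 RPKM, stood within the epiblast range. The mevalonate enzymes Pmvk and Mvd had log2FC of -0.68 (adjusted p = 0.0371) and -0.38 (adjusted p = 0.00144). The fall of Mvd was uneven, with means of 17.1 RPKM in female E15.5 PGCs and 27.5 RPKM at E9.5. In male E15.5 PGCs its mean was 41.4 RPKM, against 40.4 RPKM in epiblast. Pmvk lost its call in 10 omissions, up to an adjusted p of 0.124 without the E7.75 female library. Of the 6 synthesis genes that did not pass, Nsdhl (adjusted p = 0.0538) and Mvk (0.0578) were nearest, followed by Fdft1 (0.137), Tm7sf2 (0.156), Lss (0.211) and Idi1 (0.560). With the libraries joined into 2 groups, so that differences between PGC ages count as scatter, 13 of the 23 members passed. Of the synthesis genes that rose, Fdps, Sqle, Cyp51, Hsd17b7 and Dhcr7 did not pass in that fit (adjusted p = 0.0730 to 0.341), which leaves Hmgcs1, Msmo1 and Ebp. Of those that fell, Pmvk (adjusted p = 0.0723) and Mvd (0.110) did not pass in it. Neither did Srebf2 (0.207), Nr1h2 (0.104) and Stard4 (0.117). Omitting the shallow E10.5 and E11.5 libraries ended the calls of Sqle (adjusted p = 0.112) and Srebf2 (0.0841) and brought in Fdft1 (0.0198) and Nsdhl (0.0130). Tm7sf2 (4.50 to 14.9 RPKM over the 18 libraries), Nsdhl (6.79 to 35.1 RPKM) and Insig2 (6.43 to 20.3 RPKM) passed in none of the comparisons as fitted to all libraries with the settings given first. Under alternatives Tm7sf2 passed between epiblast and PGCs with quantile scaling (adjusted p = 0.0340), and Insig2 between the sexes at E15.5 without the E7.25 female library (0.0480).

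**Figure D3:**
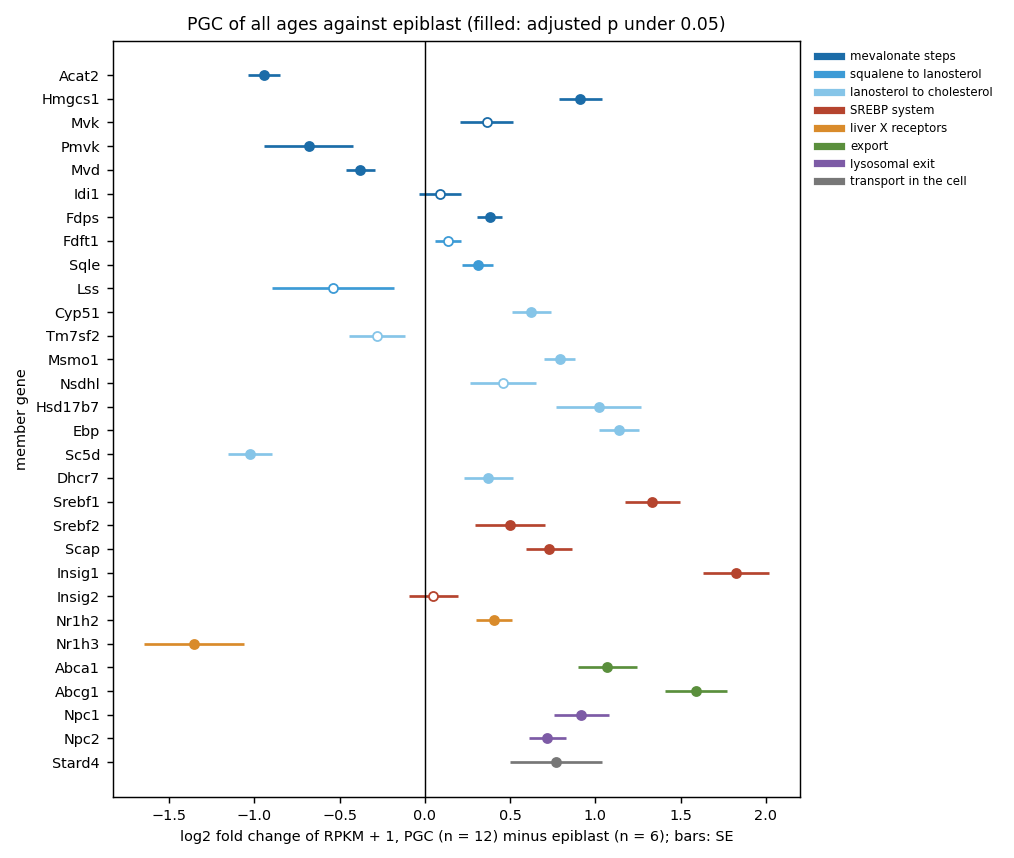
Log2 fold change of RPKM + 1 with its standard error (horizontal axis) for each of the 30 members (vertical axis, coloured by role), PGCs of all ages (n = 12) against epiblast (n = 6), with filled points where the adjusted p was under 0.05. Insig1 lies farthest to the right at 1.82 and Nr1h3 farthest to the left at -1.35, and 18 filled points lie right of 0 and 5 left of it.

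The steps between neighbouring ages share libraries with each other and with the comparison above, so their values are given side by side and not as independent evidence. The first step, from E7.75 epiblast to E9.5 PGCs, set 3 libraries against 2. Here 6 members rose (20%) and 3 fell (10%), against 16.3% and 11.3% of all tested genes, so the shares were near the background. The risers were the sterol enzymes Cyp51 and Ebp, the exporters Abcg1 and Abca1, Insig1 and Npc2, and the genes that fell were Acat2, Mvd and Idi1 of the mevalonate section. The groups did not overlap in any of the 9. Here and at the later steps, absence of overlap among genes picked as passing is no separate evidence. Its share over all tested genes was not counted. The median log2FC was -0.17 for the synthesis genes and 0.52 for the other members, against 0.04 for all tested genes.

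Abcg1 was at 5.80, 3.40 and 4.01 RPKM in the E7.75 libraries and at 23.3 and 30.1 RPKM at E9.5 (6.06-fold, log2FC 2.37 ± 0.33, adjusted p = 0.000128). The E9.5 values were the highest of this gene in the series. Abca1 was at 0, 0.847 and 0.112 RPKM at E7.75 and 2.87 and 2.03 RPKM at E9.5 (log2FC 1.43 ± 0.31, adjusted p = 0.00355). Cyp51 was at 27.5, 35.0 and 29.5 RPKM at E7.75 and 116 and 72.1 RPKM at E9.5 (3.06-fold, log2FC 1.55 ± 0.21, adjusted p = 8.4e-05). Of the 8 genes of the sterol section only Ebp also passed (33.6 against 14.1 RPKM, adjusted p = 0.000909). Npc2 rose from 34.6 to 64.4 RPKM on average (adjusted p = 0.00378) and Insig1 from 6.48 to 15.7 RPKM (adjusted p = 0.0185). The summed mesenchymal and endothelial markers given above were also higher at E9.5 than at E7.75 and E10.5, as Abcg1 and Abca1 were. The part of those cells in these values was not tested.

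Idi1, which isomerises isopentenyl diphosphate, had means of 16.0 RPKM at E9.5 and 26.1 RPKM at E7.75 (log2FC -0.71, adjusted p = 0.0296), Acat2 had a log2FC of -0.61 (adjusted p = 0.0150) and Mvd one of -0.45 (adjusted p = 0.0399). The call of Mvd was lost without any 1 of the 5 libraries compared (adjusted p = 0.0508 to 0.185). That of Insig1 was lost without E9.5 library 1 (0.0966), E9.5 library 2 (0.0596) or the E7.75 female library (0.0710), and that of Idi1 without E9.5 library 2 (0.347), E7.75 male library 1 (0.0832) or the E7.75 female library (0.0758). Acat2 lost its call without E9.5 library 1 (0.0651) or E7.75 male library 2 (0.0601). With quantile scaling 48.2% of all calls were higher, against 59.0% without it, and the member counts became 5 higher and 7 lower, with Fdft1, Sqle, Dhcr7 and Nr1h3 added as lower and Insig1 lost (adjusted p = 0.0559). Fitting only these 2 groups left 4 members: Cyp51, Ebp, Abcg1 and Npc2.

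Between E9.5 and E10.5 PGCs, 6 members rose and 6 fell (20% each), against 11.5% and 18.4% of all tested genes. The synthesis genes split evenly, with 4 higher and 4 lower. Fdps went from 233 and 167 RPKM to 435 and 411 RPKM (2.12-fold, log2FC 1.10 ± 0.15, adjusted p = 0.00011), Idi1 from 20.4 and 11.6 RPKM to 44.0 and 44.9 RPKM (2.77-fold, adjusted p = 0.000577), Sqle from 32.2 and 31.5 RPKM to 59.2 and 76.0 RPKM (2.12-fold, adjusted p = 0.000758), and Msmo1 from 46.0 and 57.9 RPKM to 102 and 112 RPKM (2.07-fold, adjusted p = 0.000865). None of these 4 overlapped between the groups. The other risers, Srebf2 (adjusted p = 0.0470) and Nr1h2 (0.0384), lost their calls in 17 and 5 of the 18 single-library omissions, with the highest adjusted p (0.599 and 0.342) without E9.5 library 1. In that library Srebf2 was at 8.12 RPKM, against 35.1 RPKM in the other E9.5 library.

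Acat2, Lss, Cyp51, Sc5d and both exporters fell. Sc5d went from 19.2 and 17.9 RPKM to 5.65 and 4.88 RPKM (log2FC -1.64, adjusted p = 0.000371) and stayed at 4.30 to 11.6 RPKM in all later libraries. Cyp51 went from 116 and 72.1 RPKM to 31.8 and 37.4 RPKM (log2FC -1.38, adjusted p = 0.000472). Lanosterol synthase, Lss, went from 36.0 and 62.1 RPKM to 8.57 and 0.474 RPKM (log2FC -3.69 ± 0.72, adjusted p = 0.00159), its lowest values in the series and far apart from each other. Abcg1 fell from 23.3 and 30.1 RPKM to 4.12 and 8.48 RPKM (log2FC -1.98, adjusted p = 0.00106), with Abca1 (log2FC -1.01, adjusted p = 0.0376) and Acat2 (log2FC -0.73, adjusted p = 0.0084). The call of Abca1 was lost in 4 single-library omissions, up to an adjusted p of 0.154 without E9.5 library 1.

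Both counts at this step depended on scaling. The median over all genes was -0.16 here and 0 with quantile scaling. Under quantile scaling the members split into 10 higher and 4 lower, and 51.3% of all calls were higher in place of 38.5%. That scaling added Mvd, Fdft1, Hsd17b7, Nr1h3 and Stard4 as higher. It ended the calls of Nr1h2 (adjusted p = 0.0829), Acat2 (0.0704) and Abca1 (0.513). Abca1 also did not pass with a pseudocount of 0.1 (0.199) or without the filter (0.120). The E10.5 libraries were also the shallow ones, and a fit of these 4 libraries alone called 0 members and 0 genes. The part of depth in these values was not tested.

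From E10.5 to E11.5, Lss rose (1 of 30 members, 3.33%, against 3.59% of all tested genes) and Idi1 fell (3.33%, against 3.61%). Lss was at 23.4 and 47.9 RPKM at E11.5 (log2FC 3.20 ± 0.72, adjusted p = 0.0179), and 1 of these values lay within the range of the E9.5 libraries. Idi1 was at 22.4 and 21.9 RPKM, against 44.0 and 44.9 RPKM before (log2FC -0.98, adjusted p = 0.0302). The call of Idi1 was lost without any 1 of the 4 libraries compared (adjusted p = 0.0723 to 0.128), and that of Lss without E11.5 library 2 (0.128) or E10.5 library 2 (0.0882).

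From E11.5 to E12.5, Insig1, Hmgcs1, Cyp51 and Msmo1 rose. The count was 4 higher and 0 lower (13.3% and 0%), against 4.12% and 3.09% of all tested genes. Insig1 was at 10.3 and 14.2 RPKM at E11.5 and at 69.5 and 83.3 RPKM at E12.5 (6.22-fold, log2FC 2.55 ± 0.39, adjusted p = 0.0023), and it stayed at 58.2 to 92.4 RPKM at E15.5. Its call held in each single-library omission. Hmgcs1 went from 45.6 and 40.5 RPKM to 86.2 and 84.2 RPKM (1.98-fold, log2FC 0.97 ± 0.25, adjusted p = 0.0322), Cyp51 from 39.7 and 34.0 RPKM to 84.8 and 93.2 RPKM (2.42-fold, log2FC 1.25 ± 0.23, adjusted p = 0.00491), and Msmo1 from 72.9 and 88.5 RPKM to 130 and 148 RPKM (1.72-fold, log2FC 0.78 ± 0.19, adjusted p = 0.0218). All 4 genes had both E12.5 libraries above both E11.5 libraries.

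Another 26 members did not pass at this step. The median log2FC was 0.45 for the synthesis genes and 0.23 for the others, against 0.08 over all tested genes. The call of Hmgcs1 was lost without any 1 of the 4 libraries compared (adjusted p = 0.108 to 0.155). That of Msmo1 was lost without E11.5 library 1 (0.165), E12.5 library 1 (0.0672) or E12.5 library 2 (0.159), and that of Cyp51 without E12.5 library 2 (0.0609). The E11.5 libraries were shallow and the E12.5 libraries were not, and a fit of these 4 libraries alone called 0 members and 0 genes.

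**Figure D4:**
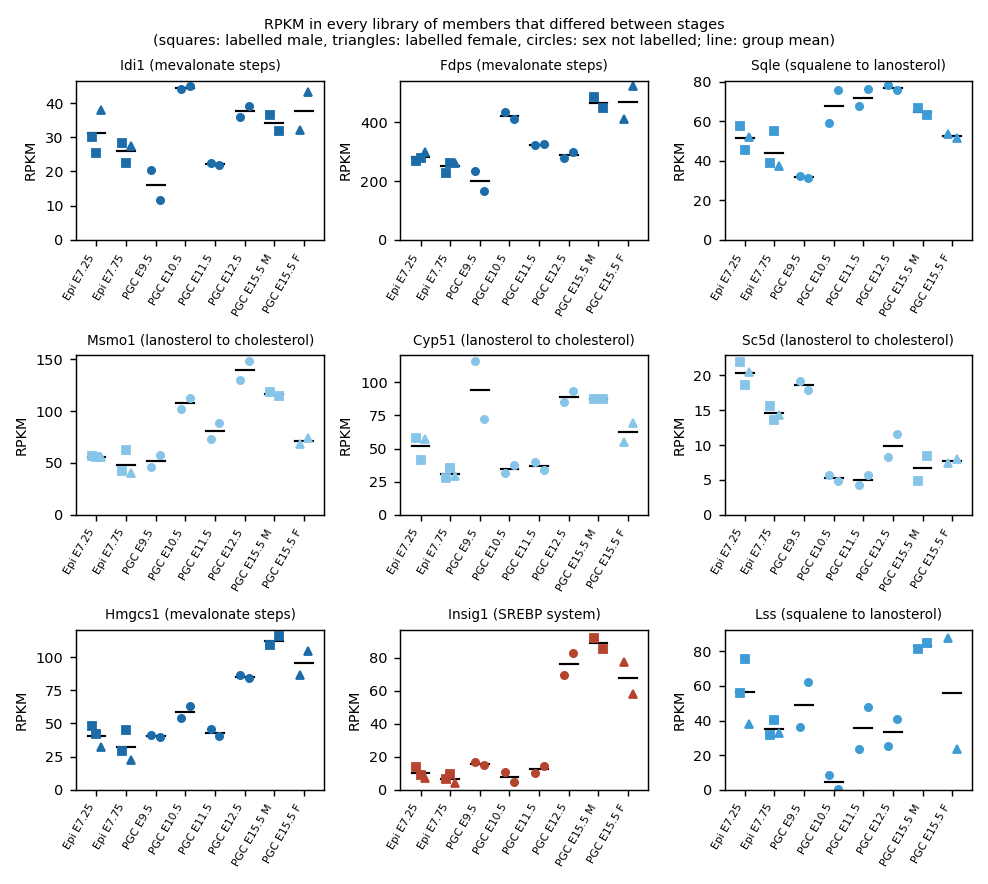
RPKM (vertical axes) of Idi1, Fdps, Sqle, Msmo1, Cyp51, Sc5d, Hmgcs1, Insig1 and Lss in every library, by group (horizontal axes), with a line at each group mean and the shape of a point giving the labelled sex. Insig1 lies at 16.7 RPKM or below in each library up to E11.5 and at 58.2 RPKM or above from E12.5, and Lss falls to 8.57 and 0.474 RPKM at E10.5.

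From E12.5 to E15.5, sexes together (2 against 4 libraries), Fdps, Fdft1 and Mvk rose (10%, against 6.81% of all tested genes) and Msmo1 fell (3.33%, against 8.27%). Fdps was at 278 and 300 RPKM at E12.5 and at 485, 447, 413 and 524 RPKM at E15.5 (1.62-fold, log2FC 0.69 ± 0.13, adjusted p = 0.00252). Squalene synthase, Fdft1, had means of 46.6 and 65.8 RPKM (log2FC 0.48, adjusted p = 0.0241), and mevalonate kinase, Mvk, of 17.0 and 32.0 RPKM (log2FC 0.86, adjusted p = 0.0452). For these 3 genes all E15.5 libraries lay above both E12.5 libraries. Msmo1 was at 130 and 148 RPKM at E12.5 and at 119, 115, 68.2 and 74.0 RPKM at E15.5 (log2FC -0.60, adjusted p = 0.0209). The call of Mvk was lost in 8 single-library omissions, up to an adjusted p of 0.271 without E12.5 library 2. That of Msmo1 was lost without E12.5 library 1 (0.0714), E12.5 library 2 (0.201) or E15.5 male library 2 (0.0518), and that of Fdft1 without the same libraries (0.203, 0.0796 and 0.0593, in that order).

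In E15.5 PGCs, 4 members were lower in the female libraries and 0 were higher (13.3% and 0%), against 5.35% and 4.33% of all tested genes. Mvd, the decarboxylase that makes isopentenyl diphosphate, was at 38.0 and 44.9 RPKM in the male libraries and at 16.3 and 18 RPKM in the female ones, 2.42-fold higher in males (female minus male log2FC -1.22 ± 0.17, adjusted p = 0.000447). The female values were its lowest in the series. Nr1h2 was at 135 and 132 RPKM in males and at 58.2 and 60.1 RPKM in females (log2FC -1.17 ± 0.21, adjusted p = 0.00321), and the male values were its highest in the series. Msmo1 (119 and 115 RPKM against 68.2 and 74.0 RPKM, log2FC -0.71, adjusted p = 0.0274) and Npc2 (means of 59.7 against 34.9 RPKM, log2FC -0.77, adjusted p = 0.0358) did not overlap either. Each of the last pair of calls was lost in 4 single-library omissions, up to an adjusted p of 0.136 for Msmo1 and of 0.219 for Npc2 without female library 1. A fit of these 4 libraries alone called 0 members and 0 genes.

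Ebp and Nsdhl are the 2 members on the X chromosome in GRCr8. Ebp was at 35.8 and 41.3 RPKM in females and 20.6 and 25.2 RPKM in males (log2FC 0.73) with an adjusted p of 0.0676, which was 0.0470 with median-ratio scaling. Nsdhl was at 35.1 and 23.6 RPKM in females and 20.7 and 17.8 RPKM in males (log2FC 0.56, adjusted p = 0.435). For both genes the female libraries lay above the male ones. The share of all tested genes with that order was not counted, so it cannot be set against a background.

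In the epiblast the sexes differed in 0 members by limma, against 0.0135% of tested genes called higher in females and 0.0471% lower. At an unadjusted p under 0.05 there were 2 members, Hmgcs1 (log2FC -0.57, adjusted p = 0.783) and Insig1 (log2FC -0.69, adjusted p = 1). The share of all tested genes under that unadjusted threshold was not counted, so the 2 members cannot be set against a background. Whether the sex difference itself changed between epiblast and E15.5 PGCs was tested by an interaction term. It called 1 member (3.33%) as more negative in PGCs and 0 as more positive, against 1.70% and 1.22% of tested genes. That member was Mvd (-1.29 ± 0.24, adjusted p = 0.0152), with epiblast means of 41.5 ± 3.89 RPKM (SD, n = 2) in female and 39.8 ± 5.13 RPKM (SD, n = 4) in male libraries. Without the E7.25 female library its adjusted p was 0.0621, and without E15.5 male library 2 it was 0.0698. Nr1h2 had an interaction of -1.09 with an adjusted p of 0.0592.

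**Figure D5:**
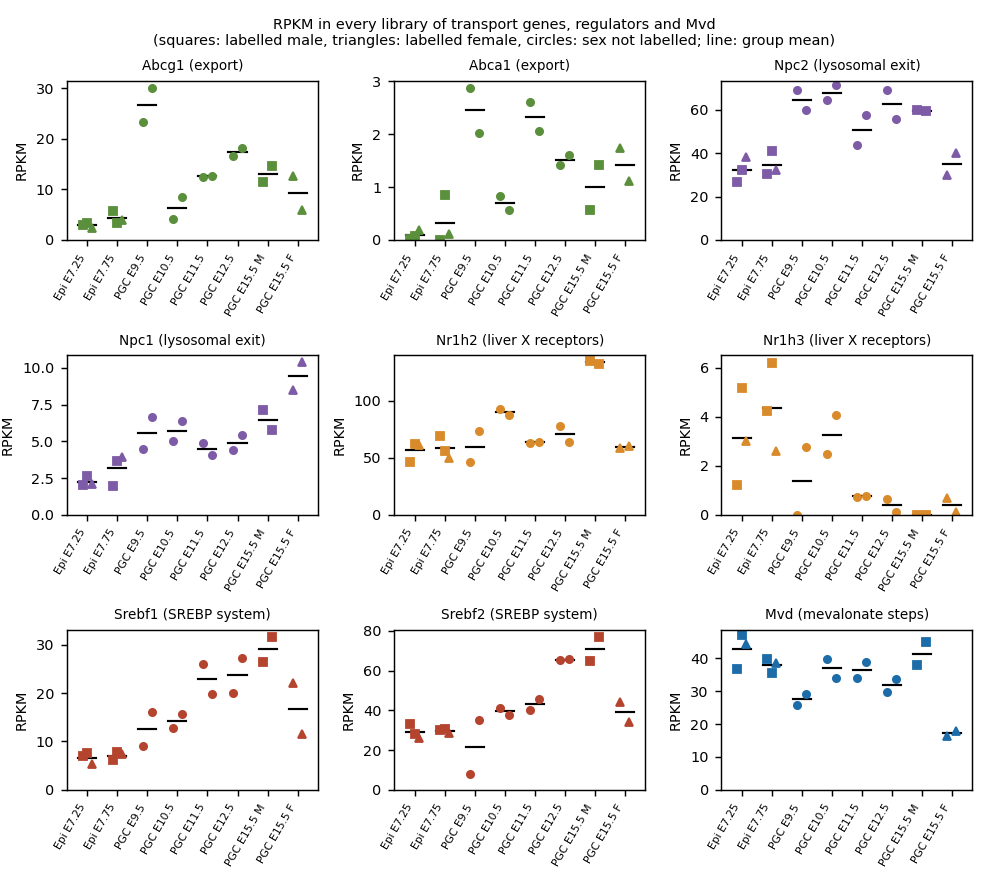
RPKM (vertical axes) of the exporters, lysosomal genes, liver X receptors, Srebf1, Srebf2 and Mvd in every library, by group (horizontal axes), with a line at each group mean and the shape of a point giving the labelled sex. Abcg1 is highest at E9.5 (23.3 and 30.1 RPKM), and in E15.5 PGCs Nr1h2 and Mvd separate the male from the female libraries.

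Between the 2 epiblast days (3 against 3 libraries) limma called 0 members, against 0.101% of all tested genes higher and 0.168% lower at E7.75. At an unadjusted p under 0.05 there were 3, each lower at E7.75. The share of all tested genes under that unadjusted threshold was not counted, so the 3 cannot be set against a background. Cyp51 was at 58.2, 41.3 and 57.3 RPKM at E7.25 and 27.5, 35.0 and 29.5 RPKM at E7.75, without overlap (log2FC -0.74 ± 0.18, adjusted p = 0.167), and Fdft1 had a log2FC of -0.35 (0.375) and Sc5d one of -0.46 (0.567). The median log2FC of the synthesis genes was -0.24, with 4 of 18 above 0, against 0.09 for the other members and 0 for all tested genes.

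A further list of the pathway held 32 genes by name, 29 of them tested. Of the 29, 7 rose and 11 fell between epiblast and PGCs, with a median log2FC of -0.14, against 32.1% higher, 26.4% lower and a median of 0.09 over all tested genes. Apoe, the apolipoprotein that carries cholesterol between cells, rose most, from a mean of 53.7 ± 48.9 RPKM (SD, n = 6) to 300 ± 108 RPKM (SD, n = 12) (5.58-fold, log2FC 2.82 ± 0.38, adjusted p = 2.04e-05). Lrp8, a lipoprotein receptor, fell most (log2FC -1.80, adjusted p = 2.46e-07).

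At the single steps, 3 of these 29 genes rose and 1 fell into E9.5 (16.3% and 11.3% of all tested genes), and 1 rose and 8 fell into E10.5 (11.5% and 18.4%). Into E11.5 (3.59% and 3.61%) and into E12.5 (4.12% and 3.09%) 1 rose and 0 fell each time, and into E15.5 1 rose and 2 fell (6.81% and 8.27%). Into E9.5, lysosomal acid lipase, Lipa, which frees cholesterol from taken-up esters, rose from 8.49 to 38.0 RPKM (log2FC 2.03, adjusted p = 0.000469). Into E10.5, Soat1, which esterifies cholesterol for storage, fell from 95.8 to 22.2 RPKM (log2FC -2.06, adjusted p = 3.21e-06). Into E12.5, Lbr, a sterol reductase that is also a nuclear membrane protein, rose from 74.0 to 139 RPKM (log2FC 0.90, adjusted p = 0.00416).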

How the data were processed

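Gene expression was measured by RNA sequencing in 18 libraries. The authors deposited 1 table of RPKM values per gene, with 0 columns outside the series. Per the submitters' processing notes, the tools were bcl2fastq 2.18.0.12, cutadapt 1.14, TopHat2 2.1.0 and Cufflinks 2.2.1, with the rat build rn6. The roles of these tools, the annotation, strand use, the treatment of reads with several matches and the read counts were not given in the sources used here. Relative depth was estimated from the steps between values under 50 RPKM. It was 82.6% to 120.9% of the E7.75 female library, and 20.7% to 22.9% at E10.5 and E11.5. The column sums ranged from 587609 to 849182 RPKM.

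Values were transformed as log2(RPKM + 1), and genes with at least 1 RPKM in at least 2 libraries were kept (14865). limma 3.58.1 in R 4.3.3 was fitted over 8 groups of libraries, or 10 groups for the comparisons of sex, with Benjamini-Hochberg adjustment over all tested genes. The fit was tested on simulated data. A call of a change required an adjusted p under 0.05. In a single-library omission the remaining library of a pair was assumed to vary like the other groups.

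The members, role groups and further lists were chosen with earlier results of these data known. All members are named where they passed and otherwise by range, and of the other lists the largest rise and the largest fall per comparison, where the higher group averaged 5 RPKM or more. The printed promoters were chosen outside that rule. Some genes of the further lists that the rule names are not reported here. The table's identifiers matched 0 entries of the reference table, so its own symbols were used. Promoter sequences are from RefSeq (GRCr8), matched by symbol for 25 of 30 members. No gene coordinates of rn6 are given.

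Alternatives were a pseudocount of 0.1, no filter, a minimum of 5 RPKM, quantile and median-ratio scaling, a replicate block, a fit of only the groups compared, a fit of 2 groups, omission of the shallow libraries, and omission of each library in turn.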

Additional observations from a re-analysis of the deposited data

Results flagged for a closer look

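Within the 6 epiblast libraries and within the 4 E15.5 libraries, each member was examined for 1 library far from the rest by Dixon's test, and 4 of 60 such groups of values stood out, where chance gives about 5%. In E15.5 PGCs, Lss was at 23.6 RPKM in female library 2 and at 81.2 to 87.8 RPKM in the other libraries. Dhcr7 was at 77.1 RPKM in male library 2 and at 51.8 to 54.1 RPKM in the others. In epiblast, E7.75 male library 2 was the highest in Nsdhl (18.3 RPKM, against 8.02 to 10.6 RPKM) and in Abca1 (0.847 RPKM, against 0 to 0.186 RPKM). The sex difference of Mvd differed between E15.5 PGCs and epiblast by -1.29 on the log2 scale, by the interaction term given above.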

How the results depend on the processing

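Of 59 calls of members over the comparisons, 55 held with a pseudocount of 0.1, 42 without the filter, 56 of 56 at a minimum of 5 RPKM, 53 with quantile and 56 with median-ratio scaling, 31 in fits of only the groups compared, and none changed sign. The cause of these losses was not tested. Members that passed between epiblast and PGCs numbered 23, and 13 with 2 groups. In fits of only the groups compared, members that passed went from 9 to 4 into E9.5 and to 0 into E10.5, E11.5, E12.5 and between the sexes at E15.5, and without the filter they numbered 0 into E11.5 and 2 each into E12.5, into E15.5 and between the sexes at E15.5. The same fits of only the groups compared gave, over all genes, 9 between the epiblast days (40 in the full fit), 2204 into E9.5 (4108), 0 into E10.5 (4443), 56 into E11.5 (1069), 0 into E12.5 (1072), 0 between the sexes at E15.5 (1439) and 150 between the sexes in epiblast (9). No filter gave 22 genes between the epiblast days, 552 into E11.5, 279 between the sexes in epiblast and 716 for the interaction (433). Between the sexes in epiblast a pseudocount of 0.1 gave 16 genes and a minimum of 5 RPKM gave 5. Omitting 1 library at a time, members that passed ranged from 19 to 25 between epiblast and PGCs, 6 to 10 into E9.5, 9 to 16 into E10.5, 0 to 2 into E11.5, 1 to 6 into E12.5, 1 to 5 into E15.5, 2 to 5 between the sexes at E15.5 and 0 to 2 for the interaction. All genes that passed then ranged from 16 to 50 between the epiblast days, 353 to 1360 into E11.5, 251 to 1305 into E12.5, 908 to 2473 into E15.5, 672 to 1679 between the sexes at E15.5, 4 to 29 between the sexes in epiblast and 163 to 599 for the interaction. Pairing of samples by the labels' replicate numbers was not detected: over 28 pairs of groups the correlation of deviations ran from -0.133 to 0.0581. Such correlations cannot exclude a weak pairing. With a replicate block, 22 members passed between epiblast and PGCs, 57 of the 59 calls held (Srebf2 at 0.0698 and Mvk into E15.5 at 0.0569 did not), Nr1h3 came in as lower into E9.5 (adjusted p = 0.0474), and 5 genes passed between the sexes in epiblast. No read counts were available for an interval on single values, and the E10.5 and E11.5 libraries had the lowest relative depth.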

Other observations

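Fatty acid synthesis genes, which SREBP-1 drives, were listed as 12 names, of which 10 were tested. Between epiblast and PGCs 2 rose and 5 fell, against 32.1% and 26.4% of all tested genes. Acsl3, which activates long fatty acids, rose most, from a mean of 30.4 RPKM in epiblast to 90.1 RPKM in PGCs (log2FC 1.34, limma adjusted p = 6.45e-08), and the desaturase Scd2 fell most, from 79.5 to 31.9 RPKM (log2FC -1.50, adjusted p = 3.96e-06). Into E9.5 the fatty acid synthase Fasn fell from 34.9 to 11.3 ± 7.93 RPKM (SD, n = 2) (log2FC -1.70, adjusted p = 0.00224). Into E10.5 Scd2 fell from 67.2 ± 27.4 RPKM (SD, n = 2) to 13.5 RPKM (log2FC -2.18, adjusted p = 0.000333). The desaturase Fads1 rose into E12.5, from 7.20 to 18.3 RPKM (log2FC 1.24), and fell again into E15.5, to 3.49 RPKM (log2FC -2.12). In E15.5 PGCs, the mitochondrial thiolase Acat1 was higher in females (63.2 against 35.9 RPKM, log2FC 0.80, adjusted p = 0.00687). Gramd1a, a sterol transfer protein, was lower in females (2.85 ± 2.29 against 9.85 ± 1.14 RPKM, SD, n = 2 each, log2FC -1.63, adjusted p = 0.0206). Ggps1, which takes farnesyl diphosphate into the prenylation branch, fell from 13.2 RPKM at E12.5 to 5.50 RPKM at E15.5 (log2FC -1.12).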
